A study of Mus musculus with 5 samples.

Results

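The regions described here are stretches of acetylated chromatin that lie inside the introns of genes and away from promoters. Peaks of 5 ChIPseq libraries were merged where they shared at least 1 bp, and the 10423 merged regions with a peak in 2 or more libraries, called consensus regions below, were sorted by position on the GRCm38 (mm10) genome. A consensus region was called intronic if it overlapped an intron, overlapped no exon and lay more than 3000 bp from any annotated transcription start site. Of the 10423 consensus regions 1581 (15.2%) met this rule, 6803 (65.3%) lay within 3000 bp of a start site and are called promoter regions, 393 overlapped an exon farther away, and 1646 lay outside genes and are called intergenic regions. Before the requirement of 2 libraries there were 18410 merged regions, and a further 1831 intronic ones had a peak in 1 library alone.

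The study asked how loss of the pyruvate dehydrogenase complex, which turns pyruvate into acetyl-CoA in mitochondria, alters the chromatin of memory-type CD8+ T cells (TM cells). WT (2 libraries) and TPdh-/- (3 libraries) TM cells were compared, and in TPdh-/- mice a floxed Pdha1 allele was crossed to a Cre recombinase driven by the CD4 promoter, so the gene was removed in the whole T lineage from the thymus on, before the cells were cultured. Splenic T cells of young adult mice of both sexes were activated and then differentiated in vitro with IL-15, which holds the cells in a memory-like state, and no library was from memory cells formed in an animal. Chromatin was precipitated with an antibody to acetylated lysine of histones that the labels describe as acetyl K18. Sequencing depth could not be read from the peak lists, which give no counts of reads. In bulk chromatin, fewer cells that carry the mark and less of the mark per cell cannot be told apart. The labels do not say whether libraries of a group came from separate mice, so p-values measure only the spread between these libraries, which may be technical.

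Acetylation of histone tails loosens the contact between nucleosomes and DNA and recruits bromodomain proteins, and it marks active promoters and enhancers. Enhancers are short stretches of DNA at which transcription factors gather and from which they act on a promoter over some distance, and many of them lie in introns, either of the gene they act on or of a neighbour. In T cells, factors of the RUNX, ETS, TCF/LEF, NFAT, STAT and AP-1 families bind at such sites. An acetylated intronic region is a candidate for such a site, and the peak lists do not say which gene a region acts on. The gene in whose intron a region lies is called its host gene here.

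The libraries differed in the length of their peak lists before any region was chosen. WT 1 had 15962 peaks, WT 2 had 8859, TPdh-/- 1 had 4920, TPdh-/- 2 had 5419 and TPdh-/- 3 had 9418. The lists were called separately, with a smallest -log10 q between 1 and 1.03. The defining genes of CD8+ T cells had a promoter peak for 7 of 8 genes in WT 1, WT 2 and TPdh-/- 3 and for 4 of 8 in TPdh-/- 1 and TPdh-/- 2. Cd8a was the 1 gene of these without a promoter peak in any library, while Cd8b1 had one in all 5. None of 10 B cell markers had a promoter peak in any library, while of 10 myeloid markers Spi1 had one in all 5 libraries and Itgax in each but TPdh-/- 2. These 2 were named after their values were seen. Pdha1, the deleted gene, held no intronic region and had no promoter peak in any library, so the lists hold no check of its deletion.

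The sequences of 6 intronic regions are shown first because the results below turn on them. They are the central 300 bases of the 3 strongest regions found in all 5 libraries among those with under 80% of bases masked as repeats, of the 2 strongest found in both WT libraries alone, and of the strongest region in Bach2, the host gene with the most regions. Strength is the mean percentile of -log10 q within each list. All are on the plus strand of GRCm38, from RefSeq's copy of that build, and capitals mark matches to the short motifs searched below. The 3 regions of all 5 libraries lie in Lncpint (chr6:31126067-31126366), 2700054A10Rik (chr17:13654799-13655098) and Dock2 (chr11:34682343-34682642).
Lncpint: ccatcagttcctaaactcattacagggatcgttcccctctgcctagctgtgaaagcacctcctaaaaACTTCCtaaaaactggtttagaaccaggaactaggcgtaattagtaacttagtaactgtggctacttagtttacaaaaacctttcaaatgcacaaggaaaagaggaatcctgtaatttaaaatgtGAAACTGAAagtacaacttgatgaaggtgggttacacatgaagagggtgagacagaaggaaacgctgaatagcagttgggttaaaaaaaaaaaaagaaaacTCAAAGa
2700054A10Rik: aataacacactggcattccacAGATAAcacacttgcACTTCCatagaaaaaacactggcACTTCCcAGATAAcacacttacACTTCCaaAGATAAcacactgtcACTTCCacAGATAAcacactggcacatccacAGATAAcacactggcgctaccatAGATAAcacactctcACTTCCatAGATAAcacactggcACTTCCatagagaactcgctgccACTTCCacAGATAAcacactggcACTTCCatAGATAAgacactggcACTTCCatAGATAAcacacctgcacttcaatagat
Dock2: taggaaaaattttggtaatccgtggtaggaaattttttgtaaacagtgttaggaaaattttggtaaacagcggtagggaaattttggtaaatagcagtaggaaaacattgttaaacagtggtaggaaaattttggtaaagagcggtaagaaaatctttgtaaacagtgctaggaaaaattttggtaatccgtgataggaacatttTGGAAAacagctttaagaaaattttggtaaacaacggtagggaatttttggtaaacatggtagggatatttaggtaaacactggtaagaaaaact
The Lncpint window held matches of the ETS, TCF/LEF and IRF motifs. The 2700054A10Rik and Dock2 windows were built of short repeated units: shifted by 23 bases the first was identical to itself at 77.3% of positions, and shifted by 24 bases the second at 69.6%, where the median over all intronic regions at their best shift between 10 and 100 bases was 33.2%. Such repeated units appeared in few regions: 18 of 1581 reached 50% identity, 6 of them among regions of all 5 libraries, and 16 of the 18 had under 80% of bases masked as repeats in the genome sequence.

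The regions of both WT libraries alone lie in Gm16675 (chr8:46686964-46687263) and Fgfr2 (chr7:132735829-132736128). The region of Bach2 lies at chr4:32364011-32364310.
Gm16675: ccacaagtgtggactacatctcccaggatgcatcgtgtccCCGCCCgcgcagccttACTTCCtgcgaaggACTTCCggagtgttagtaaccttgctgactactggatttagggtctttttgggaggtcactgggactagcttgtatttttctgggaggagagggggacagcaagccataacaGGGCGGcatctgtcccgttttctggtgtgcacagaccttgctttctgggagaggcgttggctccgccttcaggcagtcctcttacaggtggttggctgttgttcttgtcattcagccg
Fgfr2: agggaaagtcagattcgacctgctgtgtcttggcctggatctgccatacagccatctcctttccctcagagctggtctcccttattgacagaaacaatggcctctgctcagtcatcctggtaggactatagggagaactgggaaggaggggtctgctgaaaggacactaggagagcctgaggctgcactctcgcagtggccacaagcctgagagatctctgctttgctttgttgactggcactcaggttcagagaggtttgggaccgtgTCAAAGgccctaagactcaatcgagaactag
Bach2: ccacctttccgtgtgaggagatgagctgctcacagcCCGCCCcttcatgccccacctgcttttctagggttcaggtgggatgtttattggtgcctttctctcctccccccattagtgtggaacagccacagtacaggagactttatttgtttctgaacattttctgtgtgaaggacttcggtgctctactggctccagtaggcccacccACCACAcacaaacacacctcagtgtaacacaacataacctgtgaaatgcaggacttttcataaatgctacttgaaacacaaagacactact
The Gm16675 window had a GC content of 55.0% and held 11 CpG pairs, with ETS and KLF/SP matches, while the Fgfr2 window held 4 CpG pairs and a TCF/LEF match. The Bach2 window held RUNX and KLF/SP matches. A match says only that these letters are present in the window.

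Intronic regions were typically about as wide as promoter regions and lay far into their genes. Their median width was 1507 bp, from 558 to 5166 bp, against 1392 bp for promoter regions. The median distance to the nearest start site of any gene was 11.4 kb (quartiles 6.37 and 23.1 kb), with the farthest at 506.6 kb. The first intron of the host transcript held 589 of the 1581 regions (37.3%), and the median region lay 42.7% of the way through its host gene. Chromosome 11 had the most regions, 144, and the X chromosome 17. Only 12 regions (0.759%) consisted to 80% or more of masked repeats, against 12 of the 6803 promoter regions (0.176%), and 3 of the 12 intronic ones were found in all 5 libraries.

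At the 3000 bp limit, regions on both sides had similar values. The nearest intronic region lay 3009 bp from a start site. The 122 intronic regions at 3001 to 4000 bp had a peak in 97.5%, 74.6%, 41.0%, 39.3% and 77.0% of cases in WT 1, WT 2, TPdh-/- 1, TPdh-/- 2 and TPdh-/- 3. The 127 consensus regions at 2001 to 3000 bp that overlapped an intron and no exon counted as promoter regions. Their shares were 99.2%, 75.6%, 40.2%, 40.2% and 81.9%. With distance the share found in all 5 libraries stayed between 19.5% and 23.9% from 3 to 100 kb, and it was 12.1% for the 33 regions beyond 100 kb.

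Fewer intronic regions had a peak in the TPdh-/- libraries than in WT, with overlap between the groups. A peak was present in 1537 regions (97.2%) in WT 1, 1166 (73.8%) in WT 2, 588 (37.2%) in TPdh-/- 1, 614 (38.8%) in TPdh-/- 2 and 1229 (77.7%) in TPdh-/- 3. TPdh-/- 3 lay between the 2 WT libraries, and TPdh-/- 1 and TPdh-/- 2 lay well below all others. The mean was 1352 ± 262.3 regions in WT (SD, n = 2) and 810.3 ± 362.8 in TPdh-/- (SD, n = 3). The difference in log2 number was 0.81 with a pooled SD of 0.51, and an exact permutation test over all 10 assignments of the libraries gave a two-sided p = 0.4, where 0.2 is the smallest p this design allows. Presence in these same libraries chose the regions, so the p-values of this paragraph cannot decide whether the groups differ. Without WT 1 the difference was 0.48. The order of the 5 libraries was the order of their list lengths. With every list limited to its 4920 strongest peaks the direction turned: 344, 484, 475, 453 and 402 intronic regions had a peak in WT 1, WT 2, TPdh-/- 1, TPdh-/- 2 and TPdh-/- 3, a log2 difference of -0.12 (exact permutation test, p = 0.8).

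Relative to promoters, intronic regions were scarcest in TPdh-/- 1 and TPdh-/- 2, the libraries with the shortest lists. For every 100 promoter regions with a peak there were 22.7 intronic ones in WT 1, 21.9 in WT 2, 18.3 in TPdh-/- 1, 18 in TPdh-/- 2 and 20.9 in TPdh-/- 3. Both WT libraries lay above all 3 TPdh-/- libraries, and TPdh-/- 3 lay below WT 2 though its list was longer. The means were 22.3 ± 0.564 (SD, n = 2) and 19.1 ± 1.56 (SD, n = 3), a log2 difference of 0.23 with a pooled SD of 0.10. The exact permutation test gave p = 0.2, the smallest it can give. After Benjamini-Hochberg adjustment over 7 tests, among them those of presence shares and widths, it was 0.28. Both numbers in the ratio come from regions chosen by presence in these same libraries. The p-values of this paragraph therefore cannot decide whether the groups differ. Without WT 1 the log2 difference was 0.14. In lists of equal length this order was lost. There the numbers per 100 promoter regions were 9.90 in WT 1, 14.9 in WT 2, 16.2 in TPdh-/- 1, 15.2 in TPdh-/- 2 and 11.4 in TPdh-/- 3, a log2 difference of -0.22 (exact permutation test, p = 0.4). The libraries with the longest original lists, WT 1 and TPdh-/- 3, then held the fewest intronic regions per promoter region.

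Within each library intronic regions had a peak less often than promoter regions and held weaker peaks. Promoter regions had a peak in 99.4%, 78.2%, 47.2%, 50.1% and 86.6% of cases in WT 1, WT 2, TPdh-/- 1, TPdh-/- 2 and TPdh-/- 3, above the intronic share in 5 of 5 libraries. The intronic minus the promoter share averaged -7.36 percentage points (SD 3.87, n = 5 libraries). Presence in these same libraries chose the regions, so these shares are given as a description.

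The strength of a peak was taken as its percentile of -log10 q among the peaks of its own list. The median percentile of the peaks in intronic regions was 48.6 in WT 1, 42.9 in WT 2, 38.4 in TPdh-/- 1, 39.1 in TPdh-/- 2 and 36.6 in TPdh-/- 3. In promoter regions it was 71.9, 59.4, 58.2, 60.7 and 60.9. The intronic minus the promoter percentile was -21.1 on average (SD 3.08, n = 5) and below 0 in 5 of 5 libraries (exact sign-flip permutation test, p = 0.062, the smallest it can give, adjusted p = 0.109). Only called peaks have a percentile, and presence in these same libraries chose the regions. That p-value therefore cannot decide whether intronic and promoter sites differ in strength beyond the called peaks. Peaks in intronic regions were as wide as those in promoter regions or slightly wider, with a median width ratio of 1.06. The rule sorted regions by their extent, so widths are given as a description. Fold enrichment was lower, with a median between 2.2 and 2.42 in intronic regions and between 2.68 and 2.79 in promoter regions.

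Compared with intergenic regions the differences were smaller. Intergenic regions had a peak in 95.7%, 76.9%, 42.4%, 44.1% and 77.3% of cases in WT 1, WT 2, TPdh-/- 1, TPdh-/- 2 and TPdh-/- 3. The intronic minus the intergenic share was -2.34 points on average (SD 3.16) and was below 0 in 3 of 5 libraries. The median percentile was below that of intergenic regions in 5 of 5 libraries, with a mean difference of -5.69 (SD 2.23, exact permutation test, p = 0.062, adjusted p = 0.109). Presence chose these regions too, so this p-value cannot decide whether the sites differ in strength beyond the called peaks.

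**Figure D1:**
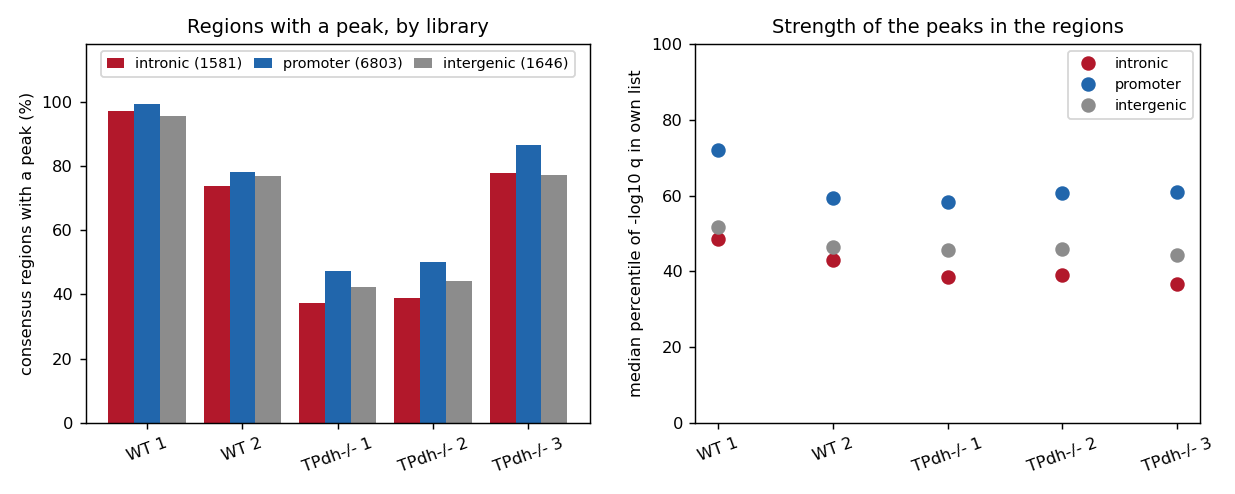
Left, share of the 1581 intronic, 6803 promoter and 1646 intergenic consensus regions with a peak in each library, in percent. Right, median percentile of -log10 q, within the library's own list, of the peaks in those regions, where the intronic points, from 36.6 to 48.6, lie below the promoter points, from 58.2 to 71.9, in each library.

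Matched for strength in WT 1, intronic regions were found in the other libraries about as often as promoter regions, and among the strongest regions more often in 3 of the 4 libraries. Of the 267 intronic regions whose WT 1 peak lay above the 75th percentile of that list, 96.6% had a peak in WT 2, 79.0% in TPdh-/- 1, 76.8% in TPdh-/- 2 and 94.8% in TPdh-/- 3. For the 3077 promoter regions of that strength the shares were 89.6%, 68.3%, 69.9% and 95.0%. Below the 25th percentile, the 291 intronic regions had a peak in 49.8% of cases in WT 2, 12.7% in TPdh-/- 1, 16.8% in TPdh-/- 2 and 60.1% in TPdh-/- 3, against 51.3%, 13.2%, 15.3% and 64.7% of 439 promoter regions. By the rule of 2 or more libraries, each of these regions had a peak in at least 1 of the 4 other libraries. Regions with a peak in WT 1 alone were left out. The shares are thus set in part by the rule, and the likeness of intronic and promoter regions is a description. Regions of 1 library share its list, so these shares were not tested.

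**Figure D2:**
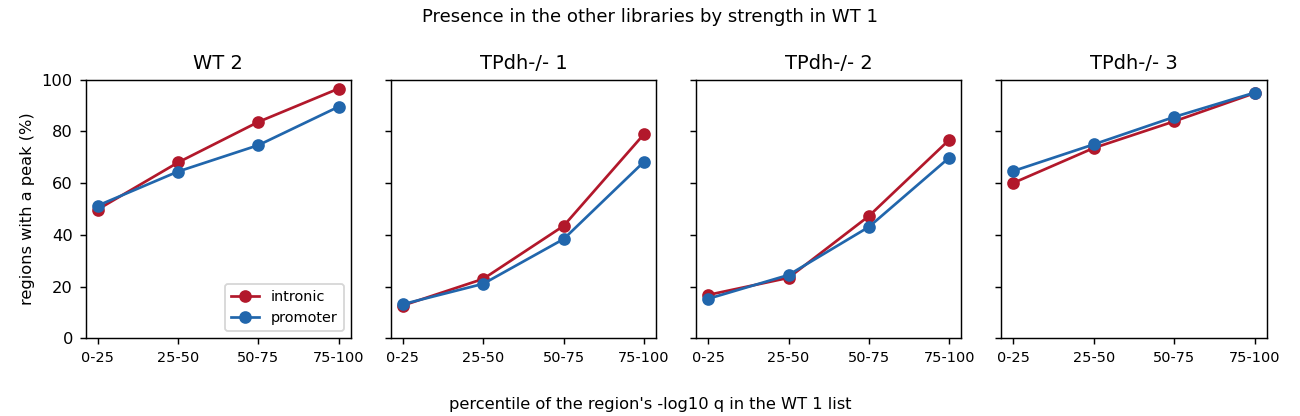
Share of regions with a peak in WT 2 and each TPdh-/- library, in percent, against the range of percentiles (0 to 25, 25 to 50, 50 to 75, 75 to 100) of the WT 1 list in which the region's WT 1 peak falls, for intronic and promoter regions. The share is higher for stronger regions of both kinds, in TPdh-/- 1 from 12.7% to 79.0% for intronic and from 13.2% to 68.3% for promoter regions.

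The 1581 intronic regions fell into a few combinations of libraries. A peak in all 5 libraries was found for 346 regions (21.9%), against 2237 promoter regions (32.9%). The next combinations were both WT with TPdh-/- 3 (269 regions), WT 1 with TPdh-/- 3 (249) and both WT libraries alone (222). Altogether 750 regions (47.4%) had no peak in either TPdh-/- 1 or TPdh-/- 2, against 37.5% of promoter regions. A peak in 2 libraries and no more was found for 574 regions (36.3%), against 24.4% of promoter regions.

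**Figure D3:**
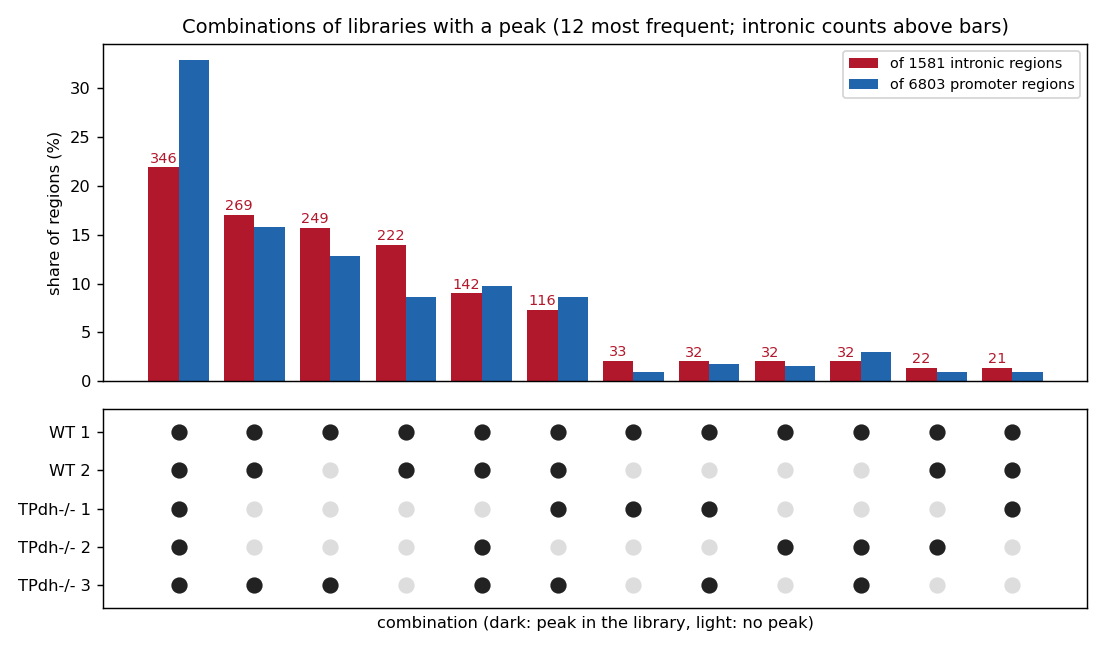
Share of the 1581 intronic and 6803 promoter regions, in percent, that had a peak in each of the 12 most frequent combinations of libraries, with the number of intronic regions above its bar and the libraries of the combination as dark dots. The share in all 5 libraries was 21.9% for intronic and 32.9% for promoter regions, and the share in both WT libraries alone was 14.0% and 8.61%.

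Regions with a peak in both WT libraries and in no TPdh-/- library numbered 222 (14.0% of 1581). Over all 10423 consensus regions this pattern was found for 10.4%. The reverse pattern, a peak in all 3 TPdh-/- libraries and none in WT, was found for 1 intronic region, and for 0.048% of all consensus regions. A peak in 2 or 3 TPdh-/- libraries and none in WT was found for 20 intronic regions (1.27%), against 0.489% of all consensus regions. These counts depended on 1 library and on list length. Without TPdh-/- 3, 492 intronic regions were of WT alone, and in lists of equal length 26 were of WT alone and 16 of TPdh-/- alone. Without WT 1, 12 intronic regions had a peak in all 3 TPdh-/- libraries and not in WT 2. Without TPdh-/- 1 or TPdh-/- 2 the number of TPdh-/- alone was 10, and without TPdh-/- 3 it was 2.

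Most regions of WT alone held weak peaks. Their median percentile was 32.2 in WT 1 and 22.6 in WT 2, where the regions of all 5 libraries had medians of 76.3 and 69.8. In 155 of the 222 (69.8%) the peak lay under the 50th percentile of both WT lists, and 3 regions reached the 75th percentile in both. The 3 were named by their rank: Gm16675 had a fold enrichment of 4.48 in WT 1 and 3.75 in WT 2, Fgfr2 had 3.46 and 2.96, and Arrb1 had 3.36 and 3.57. Gm16675 is a gene model without a known function, the second region lies in introns of both Fgfr2, a growth factor receptor, and Fam53b, and Arrb1 encodes beta-arrestin 1, which shuts off and redirects receptor signalling. The next by rank lay in Gm26624 and C230088H06Rik (4.13 and 3.06) and in St6galnac5 and Pigk (2.67 and 2.77).

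A host promoter of WT alone was about as frequent at regions of WT alone as at other regions. Of the 222 regions of WT alone, 112 had a promoter consensus region at a host gene, and 8 (3.6%) had a host promoter that was itself of WT alone, against 56 of all 1581 regions (3.54%) and 14 of the 346 regions of all 5 libraries (4.05%). For 104 of the 222 (46.8%) a host promoter had a peak in at least 1 TPdh-/- library, against 57.8% of the regions of all 5 libraries and 52.4% of all 1581.

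Of the 20 regions of 2 or 3 TPdh-/- libraries without WT, 6 consisted to 80% or more of masked repeats. The region that ranked first by strength is not reported here. Of the next by rank, one lay in C130026I21Rik, with a fold enrichment of 2.81 in TPdh-/- 2 and 3.12 in TPdh-/- 3, and the other in AI838599, with 2.97 in TPdh-/- 1 and 2.99 in TPdh-/- 3. Masked repeats made up 98.7% and 85.6% of these regions, which are among the 6.

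Among regions of all 5 libraries with under 80% repeat bases, WT and TPdh-/- values overlapped at each of the 6 strongest. Mdga2 and 2700054A10Rik held stronger regions, with mean percentiles of 99.9 and 99.3, but these consisted to 83.7% and 97.7% of masked repeats, and they were named after their values were seen. Lncpint, a long noncoding RNA gene, held the first of the 6 (chr6:31125274-31127160), with a fold enrichment of 3.16, 2.99, 2.85, 3.32 and 2.85 in WT 1, WT 2, TPdh-/- 1, TPdh-/- 2 and TPdh-/- 3. Dock2, which encodes an activator of Rac needed for lymphocyte migration, held one at chr11:34681755-34683230 with 3.88, 3.82, 3.26, 4.10 and 4.07. Gramd1b, whose product moves cholesterol between membranes, held one at chr9:40422887-40424782 with 3.03, 2.80, 2.81, 3.07 and 2.81. Bcl2l1, which encodes the survival protein Bcl-xL, held the widest of the 6 strongest, 2414 bp at chr2:152788447-152790860, with 2.15, 2.19, 2.2, 2.21 and 2.13. The other two lay in the long noncoding RNA gene 2700054A10Rik. Of these the region shown above had a fold enrichment of 4.35, 3.66, 4.93, 4.72 and 3.86, and a second at chr17:13589908-13591050 had 3.29, 3.70, 3.04, 3.38 and 3.86. Its central window repeated itself at a shift of 23 bases with 92.4% identity.

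Fold enrichment was compared between WT and TPdh-/- by limma over the 3099 consensus regions with a peak in all 5 libraries, 346 of them intronic. None of the 3099 (0%) and thus none of the intronic regions passed an adjusted p of 0.05, and the smallest adjusted p of an intronic region was 0.276. At an unadjusted p under 0.05 there were 43 intronic regions, of which 5 (1.45%) were higher in WT, against 2.68% of all 3099, and 38 (11.0%) were lower in WT, against 6.74% of all. In 84 intronic regions (24.3%) both WT values lay below all 3 TPdh-/- values, against 16.3% of all 3099, and in 20 (5.78%) both lay above, against 10.1%. The median log2 difference (WT minus TPdh-/-) was -0.05 for the intronic regions, from -0.41 to 0.31, and -0.02 for all 3099, where the median SD between replicates was 0.0941. The direction rested on the measure: by rank of -log10 q in place of fold enrichment, 15 intronic regions had an unadjusted p under 0.05, 10 of them higher in WT, and again none passed adjustment. Fold enrichment was averaged over each library's own peaks. The median width of these in intronic regions was 1357, 1088, 907, 941.5 and 1095 bp in WT 1, WT 2, TPdh-/- 1, TPdh-/- 2 and TPdh-/- 3. The part of peak width and list length in the differences was not tested, so lower WT values do not show more acetylation in TPdh-/-. The other 1235 intronic regions lacked a peak in at least 1 library and were outside this fit.

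The 1581 regions lay in introns of 1258 host genes, of which 1095 were protein-coding, 93 were lincRNA and 35 antisense genes. A single host gene was found for 1478 regions, while 101 lay in introns of 2 genes and 2 in introns of 3. Of the host genes 985 (78.3%) held 1 region, 189 held 2, 51 held 3 and 33 held 4 or more. Coding host genes had a median length of 97.8 kb, against 28.6 kb for the 15893 coding genes with any intronic sequence in which a region could lie under the rule, called open intron here. Of those 15893 genes 6.89% were hosts, from 0.236% of genes with at most 5 kb of open intron to 25.9% of genes with over 200 kb. Per Mb of open intron the density went from 1.10 to 3.10 at 50 to 100 kb and back to 1.08 above 200 kb, so the number of regions did not follow length in a constant proportion.

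Host genes more often had an acetylated promoter than other coding genes. A promoter peak was present at 54.4% of the 1095 coding hosts in WT 1, 44.7% in WT 2, 27.7% in TPdh-/- 1, 30.1% in TPdh-/- 2 and 47.7% in TPdh-/- 3. For the 14798 coding genes with open intron and no region the shares were 32.5%, 25.7%, 16.0%, 17.1% and 28.9%. The hosts lay above the other genes in each library, and the part that gene length plays in this was not tested.

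Bach2 held the most regions, 10. It encodes a transcriptional repressor that restrains effector genes and preserves memory and naive states in T cells. All 10 had a peak in WT 1 and in WT 2, 8 in TPdh-/- 1, 8 in TPdh-/- 2 and 9 in TPdh-/- 3, and 7 were found in all 5 libraries. The regions lay between 19.4 and 186.2 kb from the start of the gene, which spans 347.3 kb (chr4:32238804-32586108), and the Bach2 promoter had a peak in each library. The strongest, the one whose sequence is shown above (chr4:32363124-32365197), had a fold enrichment of 2.33, 2.2, 2.25, 2.32 and 2.15 in WT 1, WT 2, TPdh-/- 1, TPdh-/- 2 and TPdh-/- 3, and the groups overlapped. The widest (4109 bp, chr4:32288398-32292506) had low values throughout, 1.50, 1.68, 1.73, 1.73 and 1.62. One region, at chr4:32350603-32352038, was of WT alone, with a fold enrichment of 1.58 and 1.75. The region farthest into the gene (chr4:32423921-32426012) had 2.21, 2.07, 2.42, 2.30 and 2.45, so that both WT values lay below the 3 TPdh-/- values, with a log2 difference of -0.18 ± 0.08 (SE) and an adjusted p of 0.481 by limma. The regions at chr4:32279823-32282106 and chr4:32334814-32337087 had the same order, with log2 differences of -0.09 and -0.14 (adjusted p 0.713 and 0.507 by limma). In the other Bach2 regions of all 5 libraries the groups overlapped. Among regions of all 5 libraries, 24.3% of intronic ones and 16.3% of all had this order. In lists of equal length 9 Bach2 regions were found, and at a -log10 q of at least 5 there were 5.

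**Figure D4:**
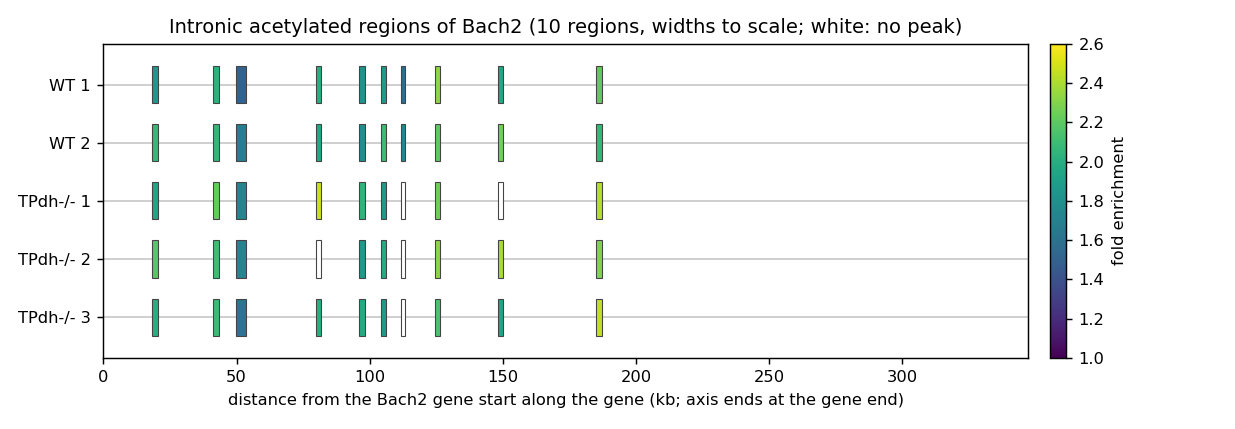
Position of the 10 intronic regions along Bach2, in kb from the gene start, with widths to scale and 1 row per library, coloured by fold enrichment and white where the library had no peak. All 10 boxes are filled in WT 1 and WT 2, 8 in TPdh-/- 1 and TPdh-/- 2 and 9 in TPdh-/- 3.

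Other host genes with many regions differed in how many of them had a peak in TPdh-/- 1 and TPdh-/- 2, where 37.2% and 38.8% of all 1581 regions had one. Cblb, an E3 ubiquitin ligase that limits T cell activation, held 7 regions, with a peak in 7, 6, 2, 2 and 5 of them in WT 1, WT 2, TPdh-/- 1, TPdh-/- 2 and TPdh-/- 3. Arhgap26, which encodes a GTPase-activating protein, held 7 with 7, 4, 1, 3 and 7. Inpp4b, a phosphatase of phosphoinositide signalling, held 6 with 6, 5, 3, 3 and 4. Foxp1, a forkhead factor that keeps T cells quiescent, held 6 with 6, 4, 3, 4 and 4. In each of these genes WT 1 held all the regions and TPdh-/- 1 the fewest, alone or tied. Cmss1 held 6 regions with 6, 4, 5, 4 and 5, and 5 of the 6 also lay in introns of Filip1l. The remaining 4 of the 10 host genes with the most regions, Gm20388 (8), Gm37240 (7), C230088H06Rik (7) and Gm20696 (6), are gene models that span other genes, and the 6 regions of Gm20696 are those of Foxp1. C230088H06Rik stood apart in that WT 2 held all 7 of its regions and WT 1 held 4.

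Genes of memory T cells held 22 regions, 10 of them in Bach2 and 6 in Foxp1. Of 13 memory-associated genes with open intron 4 were hosts, or 30.8%, against 6.89% of all coding genes with open intron. The share was higher for lymphoid transcription factors (47.4%), homing genes (35.7%) and T cell receptor genes (33.3%). It was also higher for histone acetylation genes (31.6%) and long genes of nerve cells (31.2%). It was lower for cytokine receptor genes (30%), B cell markers (28.6%), effector-associated genes (25%), myeloid markers (14.3%) and acetyl-CoA genes (0%). The density of the memory-associated genes was 18.2 per Mb of open intron, and 13.2 per Mb without Bach2, where coding genes as a whole had 1.89. The regions with a peak numbered 22, 19, 14, 13 and 19 in WT 1, WT 2, TPdh-/- 1, TPdh-/- 2 and TPdh-/- 3. Beside Bach2 and Foxp1 the hosts were Bcl2, a survival factor, with 4 regions, and Lef1, a partner of beta-catenin, with 2. Of the 22 regions 9 were of all 5 libraries and 1 was of WT alone. A region in Lef1 (chr3:131207911-131209549) had a fold enrichment of 2.26 in WT 1, 3.02 in WT 2, 2.61 in TPdh-/- 1 and 2.52 in TPdh-/- 3, with no peak in TPdh-/- 2. The list was chosen with results of these data known, so its density is a description.

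Effector-associated genes had 3 hosts of 12 with 1 region each, 8.8 per Mb of open intron, where coding genes as a whole had 1.89. Peaks were present in 3, 2, 2, 1 and 3 of these regions in WT 1, WT 2, TPdh-/- 1, TPdh-/- 2 and TPdh-/- 3. Gzmk, which encodes granzyme K, held one found in all 5 libraries (chr13:113197322-113198524) with a fold enrichment of 3.27, 3.00, 2.61, 2.55 and 2.83 in WT 1, WT 2, TPdh-/- 1, TPdh-/- 2 and TPdh-/- 3. Both WT values lay above the 3 TPdh-/- values, with a log2 difference of 0.21 ± 0.10 (SE) and an adjusted p of 0.511 by limma. Prdm1, which encodes the effector factor Blimp-1, held one with 2.01, 2.19, 2.47 and 2.16 in WT 1, WT 2, TPdh-/- 1 and TPdh-/- 3. Cx3cr1, a chemokine receptor of effector cells, held one with 2.10 in WT 1 and 2.11 in TPdh-/- 3. None of the 3 host genes had a promoter peak in any library. Ccl5, a chemokine of effector and memory cells, held none.

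Genes of the T cell receptor and its signalling had 6 hosts of 18 with 9 regions, 11.7 per Mb. Peaks were present in 8, 9, 3, 4 and 4 of the 9 in WT 1, WT 2, TPdh-/- 1, TPdh-/- 2 and TPdh-/- 3. Over all intronic regions the shares with a peak were 97.2%, 73.8%, 37.2%, 38.8% and 77.7% in the same libraries. Both WT libraries thus held more of the 9 than any TPdh-/- library, which was not tested for so few regions. The same held for the lymphoid transcription factor genes below, but not for the cytokine receptor or homing genes. Fyn, a Src family kinase, held 3, and Prkcq, the kinase that relays T cell receptor signals to NF-kB, held 2. The stronger Prkcq region (chr2:11202824-11205225) was found in all 5 libraries with a fold enrichment of 2.07, 2.29, 2.70, 2.35 and 2.54, where both WT values lay below the 3 TPdh-/- values (log2 difference -0.23 ± 0.08 SE, adjusted p 0.344 by limma). Ptprc, which encodes CD45, held 1 with a peak in both WT libraries and TPdh-/- 2. The pattern of WT alone was found for 14% of all intronic and 10.4% of all consensus regions. Of the 9 regions here 4 were of WT alone, 2 of them in Fyn. The other two were in Cd28, the costimulatory receptor, and in Cd6, both named here after their values were seen.

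Lymphoid transcription factor genes had 9 hosts of 19 with 13 regions, 7.49 per Mb, and peaks in 13, 11, 4, 5 and 8 of them in WT 1, WT 2, TPdh-/- 1, TPdh-/- 2 and TPdh-/- 3. Tox and Runx2 held 3 each. Of the Tox regions 2 were of WT alone, with percentiles in WT 1 and WT 2 of 37.8 and 1.23, and of 15.7 and 30.2. The third Tox region (chr4:6901664-6903488) had a fold enrichment of 2.47, 2.39 and 2.59 in WT 1, WT 2 and TPdh-/- 3. Runx2, a RUNX factor, had no region with a peak in TPdh-/- 1 or TPdh-/- 2. Ikzf1, which encodes Ikaros, held 1 region of all 5 libraries (chr11:11724786-11727395) with 1.93, 1.92, 1.98, 1.91 and 1.99. Fli1, an ETS factor, held 1 with a peak in WT 1, TPdh-/- 2 and TPdh-/- 3.

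Cytokine receptor and JAK-STAT genes had 6 hosts of 20 with 8 regions, 13.1 per Mb, and peaks in 7, 5, 2, 3 and 7 of them in WT 1, WT 2, TPdh-/- 1, TPdh-/- 2 and TPdh-/- 3. Stat3, a factor downstream of many cytokines, held 1 region of all 5 libraries (chr11:100931121-100932334) with a fold enrichment of 2.72, 2.75, 2.72, 2.76 and 2.54. Il12rb2, an IL-12 receptor chain, and Stat4, which signals from it, held 2 each, and the Janus kinase gene Jak1 held 1. Il10ra, an IL-10 receptor chain, held none. Homing and adhesion genes had 5 hosts of 14 with 7 regions, 15.2 per Mb, and peaks in 7, 5, 3, 4 and 7. Cxcr5, a receptor that directs cells to lymphoid follicles, held 2. Its region at chr9:44532188-44534052 was found in all 5 libraries with a fold enrichment of 2.13, 2.08, 2.08, 2.07 and 2.21, and the other, at chr9:44515069-44517049, in WT 1, WT 2 and TPdh-/- 3 with 1.70, 1.97 and 1.97. Pecam1, an adhesion molecule, held 2, Itgb2, the beta chain of the leukocyte integrins, held 1 found in all 5 libraries, and Selplg, the ligand of selectins, held 1 found in WT 1 and TPdh-/- 3.

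Genes of acetyl-CoA supply held no intronic region and genes of histone acetylation held 7, over much less open intron in the first list. Over all coding genes with open intron 6.89% were hosts, at 1.89 regions per Mb. At that density the open intron of the first list would hold few or no regions. None of the 14 pyruvate dehydrogenase and acetyl-CoA genes with open intron was a host, over 236.9 kb of open intron, while 8, 8, 3, 3 and 5 of the 16 genes of this list had a promoter peak in WT 1, WT 2, TPdh-/- 1, TPdh-/- 2 and TPdh-/- 3. Histone acetylation enzymes and readers had 6 hosts of 19 with 7 regions over 1825 kb, 3.84 per Mb, and peaks in 6, 5, 2, 1 and 7. Kat2b, a histone acetyltransferase, held 1 region of all 5 libraries (chr17:53649303-53651211) with a fold enrichment of 2.2, 2.5, 2.37, 2.26 and 2.11. Hdac4, a deacetylase, held 2, found in WT 1 and TPdh-/- 3 and, for the second, also in WT 2, and Hdac7, a related deacetylase, and Ncoa3, a coactivator, held 1 each.

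Lists of genes of other cells also held regions. Of 16 long genes of nerve cells 5 were hosts with 5 regions over 24499 kb of open intron, 0.204 per Mb, and none was found in all 5 libraries. B cell marker genes had 2 hosts of 7, Pax5 and Ebf1, each with 1 region found in WT 1 and TPdh-/- 3, or 3.44 per Mb, and myeloid markers had 1 of 7, Itgam, with a region of WT alone, or 4.71 per Mb. Both densities were above the 1.89 per Mb of all coding genes and rest on 2 regions and 1 region. No promoter of a host gene among these B cell and myeloid markers had a peak in any library.

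The sequence of intronic regions resembled that of intergenic regions more than that of promoters. In the central 300 bases the median GC content was 46.3% for intronic, 47.3% for intergenic and 59.3% for promoter regions, and 42.0% for 84004 windows laid every 10000 bases through open introns. A GC content over 50% together with a CpG density over 0.6 of that set by base composition was found in 1.01% of intronic, 4.37% of intergenic and 55.9% of promoter regions.

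Motifs were searched on both strands as fixed letters. RUNX (TGTGGT) was found in 32.6% of intronic, 30.0% of intergenic and 15.4% of promoter windows, and in 20.5% of the intron windows laid every 10000 bases. ETS (GGAAGT) was found in 31.8%, 31.2% and 27.6%, against 16.6% of the intron windows. KLF/SP (GGGCGG) was found in 6.83% of intronic, 9.72% of intergenic and 45.0% of promoter windows, and 2.43% of the intron windows. Intronic regions thus held RUNX and ETS letters more often than intron sequence at large, while NFAT (TGGAAA), at 24.3% against 28.8%, was less frequent. So were the letters AGATAA, which factors of the GATA family bind, at 16.7% against 19.0%. For TCF/LEF (TCAAAG) the shares were 23.6% and 22.1%, for IRF (GAAANNGAA) 15.3% and 11.2%, for STAT (TTCNNNGAA) 13.7% and 10.9%, for AP-1 (TGANTCA) 10.6% and 9.15%, and for T-box (GGTGTGA) 4.87% and 3.97%. GC content differs between these sets and its part in the shares was not tested. The letters of different motifs can overlap.

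**Figure D5:**
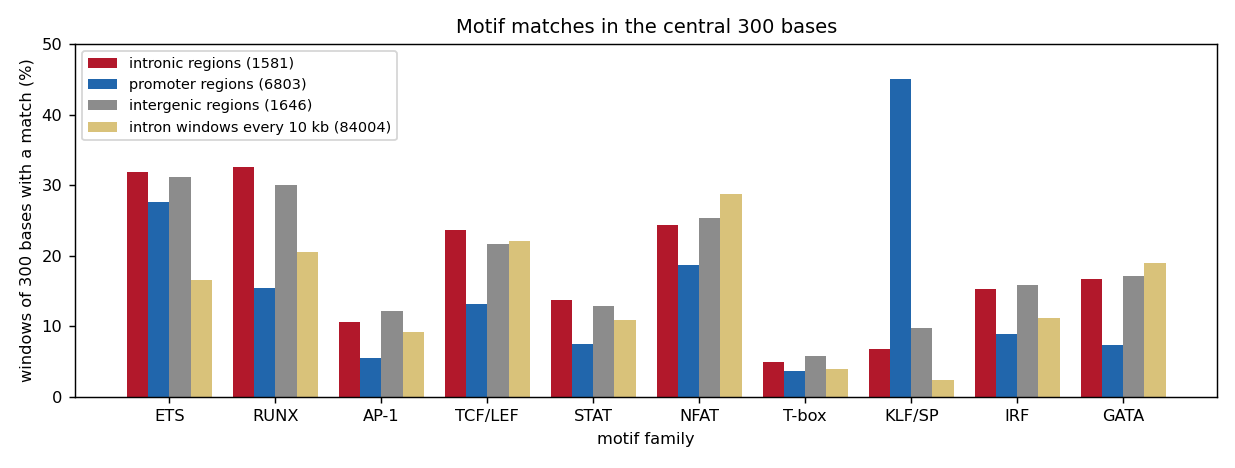
Share of windows of 300 bases, in percent, with at least 1 match of each motif on either strand, for the centres of intronic, promoter and intergenic regions and for windows laid every 10000 bases through open introns. The RUNX bar is 32.6% for intronic and 20.5% for laid windows, and the KLF/SP bar is 45.0% for promoter regions.

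Regions of all 5 libraries and regions of WT alone differed little in base composition and more in some motifs. Median GC content was 47.0% and 46.0%, and the ETS motif was found in 33.5% and 34.7%. RUNX was found in 36.7% of the 346 regions of all 5 libraries and 30.6% of the 222 of WT alone, and TCF/LEF in 19.1% and 29.7%. These shares were not tested, since the patterns and the windows come from the same lists.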

How the data were processed

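Peak lists of 5 ChIPseq libraries were analysed. The authors aligned reads to GRCm38/mm10 with BWA (0.7.17), kept reads with a unique position with SAMtools (1.15.1), left out the ENCODE blacklist and ran MACS2 (2.2.6) for broad peaks, one list per library, and an input control is not given in the sources used here. The deposited columns used were position, fold enrichment (a ratio) and −log10 q. The deposited −log10 p and score columns were read and not analysed.

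Peaks were merged with Python (3.11.15) and checked against bedtools (2.31.1), which gave the same 18410 regions, and classified with GENCODE M21. Samples were grouped by title. Fold enrichment was taken as the length-weighted mean over a region's peaks, on the log2 scale, centred on each library's median, and tested with limma (3.58.1, R 4.3.3) with a trend and Benjamini-Hochberg adjustment. Single values were tested by exact permutation. Scripts were tested on simulated data. Motifs were read from the central 300 bases. The members and gene lists were chosen with earlier results of these data known.

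Named were the 10 host genes with the most regions, the 6 strongest regions of all 5 libraries with under 80% repeat bases, the 5 strongest of WT alone and up to 3 of TPdh-/-, up to 4 host genes per list by number of regions and then covered length, and Pdha1, Cxcr5, Ccl5 and Il10ra. Some items that this rule names are not reported here. Alternatives tried were stricter −log10 q limits (2 and 5), equal list lengths, 50% overlap, 3 libraries, 10000 bp from start sites, protein-coding genes alone, repeat regions left out, other measures in limma, a replicate block and each library left out in turn.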

Additional observations from a re-analysis of the deposited data

How the results depend on the processing

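The 1581 intronic regions became 214 at a −log10 q of at least 5, 632 in lists of equal length, 1007 where a peak in at least 3 libraries was required and 893 more than 10000 bp from start sites. Their 1258 host genes became 210, 570 and 710 at the first, second and last of these settings. Regions of WT alone, 222, became 50 at a −log10 q of at least 5, 26 in lists of equal length and 129 beyond 10000 bp. Regions of TPdh-/- alone, 1, became 0 at a −log10 q of at least 5, 16 in lists of equal length and 0 with protein-coding genes alone.

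In lists of equal length the log2 difference in intronic regions with a peak, 0.81, turned to -0.12 and the log2 intronic-to-promoter ratio, 0.23, turned to -0.22. The other settings kept the direction of these 2 values and of the shares and percentiles of intronic minus promoter regions, and no p of theirs could pass 0.05 in this design.

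Leaving out 1 library gave 1071 to 1535 intronic regions, 912 to 1227 host genes, a log2 difference of 0.48 to 1.04, an intronic-to-promoter log2 ratio of 0.14 to 0.28, a presence share of -5.88 to -5.10 points, a percentile difference of -22.1 to -19.5, 243 to 492 regions of WT alone and 1 to 12 of TPdh-/- alone. The 492 was reached without TPdh-/- 3. Without a WT library, regions of WT alone could not be counted.

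No intronic region passed limma's adjusted p of 0.05 in any of the 14 fits, with 1 to 67 at an unadjusted p under 0.05, while 5 other regions passed without TPdh-/- 3. With the replicate block (WT 1 with TPdh-/- 1, WT 2 with TPdh-/- 2) none passed, the log2 difference was 1.04 and the log2 ratio 0.28 (exact sign-flip permutation test over 2 pairs, p = 0.5 for both). Deviations of same-numbered libraries from their group means had correlations of -0.137 and 0.0796. With 2 WT libraries the deviations of WT 1 and WT 2 mirror each other, so these values cannot show whether the numbers are pairs. The numbers were not taken as pairs.

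The lists hold no reads, and absence of a peak at unknown depth does not show absence of acetylation. Each list has its own length, and its effect on presence cannot be told apart from genotype.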
